A study of Mus musculus with 2 samples.

Results

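The AP-1, BATF and BACH factors are 10 of the 31253 genes in the deposited matrices, taken by symbol: Fos, Fosb, Fosl2, Jun, Junb, Jund, Atf3, Batf, Batf3 and Bach2. They were followed across marker-gated cell types of mouse spleen and between 2 droplet single-cell RNA-seq libraries. The Kmt2d fl/fl library came from Foxp3YFP-Cre Kmt2dfl/fl mice, and the Kmt2d +/+ library from Foxp3YFP-Cre Kmt2d+/+ mice, so both groups carry a yellow fluorescent protein with Cre recombinase driven from the Foxp3 gene, which is expressed in Treg cells. Each library pooled splenic cells of 3 mice that had been sorted as CD4+FoxP3+. With 1 library per genotype and no replicates, no test between genotypes was possible: values stand beside each other and describe these pools, and intervals are 95% intervals that cover counting error only.

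AP-1 factors bind DNA as dimers of basic leucine zipper proteins. FOS proteins must pair with a JUN protein, JUN proteins can also pair with one another, and BATF proteins pair with JUN proteins and join IRF4 or IRF8 at composite sites. In T cells, FOS and JUN genes are switched on within minutes of antigen receptor signalling and also by cell handling, BATF is needed for effector and tissue Treg cells, and BACH2, which pairs with small MAF proteins, holds T and B cells back from effector programmes. Kmt2d, the floxed gene, encodes a histone H3 lysine 4 methyltransferase that acts at enhancers.

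The fl/fl matrix held 8784 barcodes with 63989234 unique molecular identifiers (UMIs, the counts of distinct RNA molecules), and the +/+ matrix 7947 barcodes with 53680614 UMIs, at medians of 6039.5 and 5562 UMIs per barcode. The libraries shared 15 barcodes. After filtering, 8416 fl/fl and 7673 +/+ single cells were gated on marker UMIs, and 1927 fl/fl and 1822 +/+ cells met no gate. The Treg gate (T cells with a Foxp3 UMI or at least 3 UMIs of Ikzf2, a transcription factor gene of Treg cells) held 3684 fl/fl and 3858 +/+ cells, 43.8% and 50.3% of single cells, although the label of both samples was sorted Treg cells. A Foxp3 UMI was seen in 18.3% and 22.1% of them, and Foxp3 was at 27.7 CPM in fl/fl and 41.1 CPM in +/+ Treg cells (CPM, UMIs of the gene per 1000000 UMIs of the gate). Kmt2d was at 66.8 and 69.6 CPM in the same cells. The labels do not say which exons are floxed, and tags near the 3′ end can lie outside a deletion, so this level checks nothing about it.

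By the share of central (resting) markers among central and effector marker UMIs, 2470 fl/fl Treg cells (67.0% of the gate) and 1383 +/+ Treg cells (35.8%) were central, while 621 (16.9%) and 1591 (41.2%) were effector. These gates are ranges of a score and not separate types: 857 fl/fl and 1116 +/+ Treg cells lay within 0.1 of a cut. None of the 10 factors was a gating marker. A gene counted as measured at 10 CPM or more on either side of a comparison, and as higher or lower when its CPM differed at least 1.5-fold with an interval that excluded no difference, which is a rule of size and not a test across replicates.

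In the mouse genome (GRCm38), 4 of the factors lie in 2 neighbouring pairs. Fos (chr12:85473890-85477273, plus strand) and Batf (chr12:85686669-85709087, plus strand) are 209396 bases apart, and Batf3 (chr1:191097847-191108945, plus strand) and Atf3 (chr1:191170296-191218039, minus strand) 61351 bases apart. Fosb lies at chr7:19302696-19310051 (minus strand), Fosl2 at chr5:32135801-32157842 (plus), Jun at chr4:95049034-95052222 (minus), Junb at chr8:84974484-84978718 (minus), Jund at chr8:70698949-70700616 (plus) and Bach2 at chr4:32238804-32586108 (plus).

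The promoters of Junb and Fosb, which were lower in fl/fl Treg cells, and of Fos and Jun, members of the same families that differed less or the other way, are shown as the 250 bases before the RefSeq gene start (GRCm38.p6, 5′ to 3′ on the gene's strand), with a match to a cyclic AMP response element in capitals (none was found in Junb or Fosb).
Junb, chr8:84978749-84978998, minus strand: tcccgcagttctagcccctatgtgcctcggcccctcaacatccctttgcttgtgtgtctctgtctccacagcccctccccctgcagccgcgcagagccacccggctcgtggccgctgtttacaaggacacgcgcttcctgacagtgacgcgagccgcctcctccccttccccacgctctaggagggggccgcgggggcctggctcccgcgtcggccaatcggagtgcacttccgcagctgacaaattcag
Fosb, chr7:19310046-19310295, minus strand: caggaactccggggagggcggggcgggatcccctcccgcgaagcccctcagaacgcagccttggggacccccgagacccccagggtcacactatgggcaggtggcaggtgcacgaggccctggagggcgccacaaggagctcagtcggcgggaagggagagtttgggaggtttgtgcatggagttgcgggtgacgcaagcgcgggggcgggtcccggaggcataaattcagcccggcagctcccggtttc
Fos, chr12:85473640-85473889, plus strand: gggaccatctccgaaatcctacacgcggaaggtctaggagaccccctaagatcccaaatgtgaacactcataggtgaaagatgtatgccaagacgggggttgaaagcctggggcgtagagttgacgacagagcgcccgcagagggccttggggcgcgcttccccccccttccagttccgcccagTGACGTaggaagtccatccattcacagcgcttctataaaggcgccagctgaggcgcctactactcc
Jun, chr4:95052223-95052472, minus strand: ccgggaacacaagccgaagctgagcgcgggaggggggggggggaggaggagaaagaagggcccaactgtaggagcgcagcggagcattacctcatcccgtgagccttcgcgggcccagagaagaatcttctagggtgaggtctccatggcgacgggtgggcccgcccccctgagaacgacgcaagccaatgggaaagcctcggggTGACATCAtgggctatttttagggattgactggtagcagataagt
RefSeq held a window for all 10 factors, and each was searched on both strands. RefSeq starts differ from the gene positions above for several factors. The windows of Bach2, Atf3, Fosl2 and Batf3 lie inside those spans, and that of Jund (chr8:70697489-70697738) ends some way before its span. The core TGACGT was found in Fos (66 bases before the start), Batf (98) and Atf3 (8), and in 6.47% of 32851 mouse promoter windows of this length. The related TGACNTCA, which can overlap that core, was found in Jun (45 bases before the start) and in 7.49% of windows. The AP-1 motif TGANTCA was found in 0 of the 10 windows and in 6.75% of all windows, the serum response CArG box in 0 and in 1.47%, and TATAAA in Fos (33 bases before the start) and in 12.4%. Of the factors lower in fl/fl Treg cells, Batf held TGACGT, while Junb, Jund and Fosb held neither it nor TGACNTCA. Fos, short of 1.5-fold over the Treg gate, was lower in effector Treg cells. Any link of a motif to a ratio was not tested. These letters are a description of the windows, and a motif outside a window was not looked for.

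Across cell types, the factors fell into different orders of level. Among the FOS genes, Fos, the founding member, was at 2098 CPM in fl/fl and 2528 CPM in +/+ monocytes and macrophages, and at 528 and 680.3 CPM in central Treg cells. In the fl/fl library it was higher still in plasma cells, at 2429 CPM, a gate with too few +/+ cells (33) to be listed. In the +/+ library the intervals of central Treg, effector Treg, B cells and neutrophils overlapped from one to the next, above those of NK, conventional CD4 and naive CD8 T cells, and in the fl/fl library neighbours overlapped all the way from neutrophils down to NK cells. Memory CD8 T cells were lowest, at 201 and 236 CPM. Fosb, an immediate-early relative of Fos, was also highest in fl/fl plasma cells (914 CPM), ahead of monocytes and macrophages, at 529 and 759 CPM, and dendritic cells, with B cells next at 263 and 323 CPM. Fosl2, which encodes the slower FRA2, stood in another order, with neutrophils (109 and 105 CPM) and natural killer cells (66.9 and 79.0 CPM) at the top and B cells (2.97 and 6.37 CPM) at the bottom of the gates listed in both libraries. Most neighbours between these ends overlapped.

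Of the JUN genes, Jun, the classic partner of FOS, was at 1598 CPM in fl/fl plasma cells and at 795 CPM in fl/fl and 879.8 CPM in +/+ monocytes and macrophages, and it differed between the Treg states. It was at 388 CPM in fl/fl and 335 CPM in +/+ central Treg cells and at 124 and 139 CPM in effector Treg cells. Junb, a JUN protein that serves effector T cells, had the T helper gates at the top in fl/fl cells, with activated conventional CD4 T cells at 2086 CPM and naive ones at 1957 CPM. In fl/fl cells, central and effector Treg cells came in places 5 and 6 of 12 gates, at 1219 and 1216 CPM, with overlapping intervals. In +/+ cells, effector Treg cells had the highest Junb level of 11 gates, at 2389.7 CPM, and central Treg cells were in place 3 at 2066 CPM. Jund, a JUN gene read in most cell types, was at 1832 CPM in fl/fl and 1806 CPM in +/+ B cells. Effector and central Treg cells were in places 9 and 10 of 12 gates for Jund in the fl/fl library, at 839 and 791 CPM, and in places 2 and 5 of 11 in the +/+ library, at 1469 and 1183 CPM.

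Atf3, a stress-induced factor that pairs with JUN proteins, was highest in monocytes and macrophages, at 591 CPM in fl/fl and 535 CPM in +/+ cells. Dendritic cells came next (165 and 419 CPM), then B cells (82.9 and 66.2 CPM) and neutrophils (50.9 and 48.6 CPM), the last 2 with overlapping intervals in +/+. Central Treg cells were at 4.56 and 5.43 CPM. Batf was led by effector Treg cells in both libraries, at 123 and 142 CPM, followed by activated conventional CD4 T cells at 63.2 and 71.4 CPM, whose intervals did not reach the effector Treg level. Batf3, known for the cross-presenting dendritic cell lineage, was at 141 CPM in fl/fl and 90.6 CPM in +/+ dendritic cells, and had 5 and 7 UMIs in the whole Treg gate. Bach2 was led by B cells, at 1616 and 1493 CPM, with naive conventional CD4 T cells (1191 and 1002 CPM) and central Treg cells next. It was at 10.2 and 19.4 CPM in neutrophils.

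**Figure D1:**
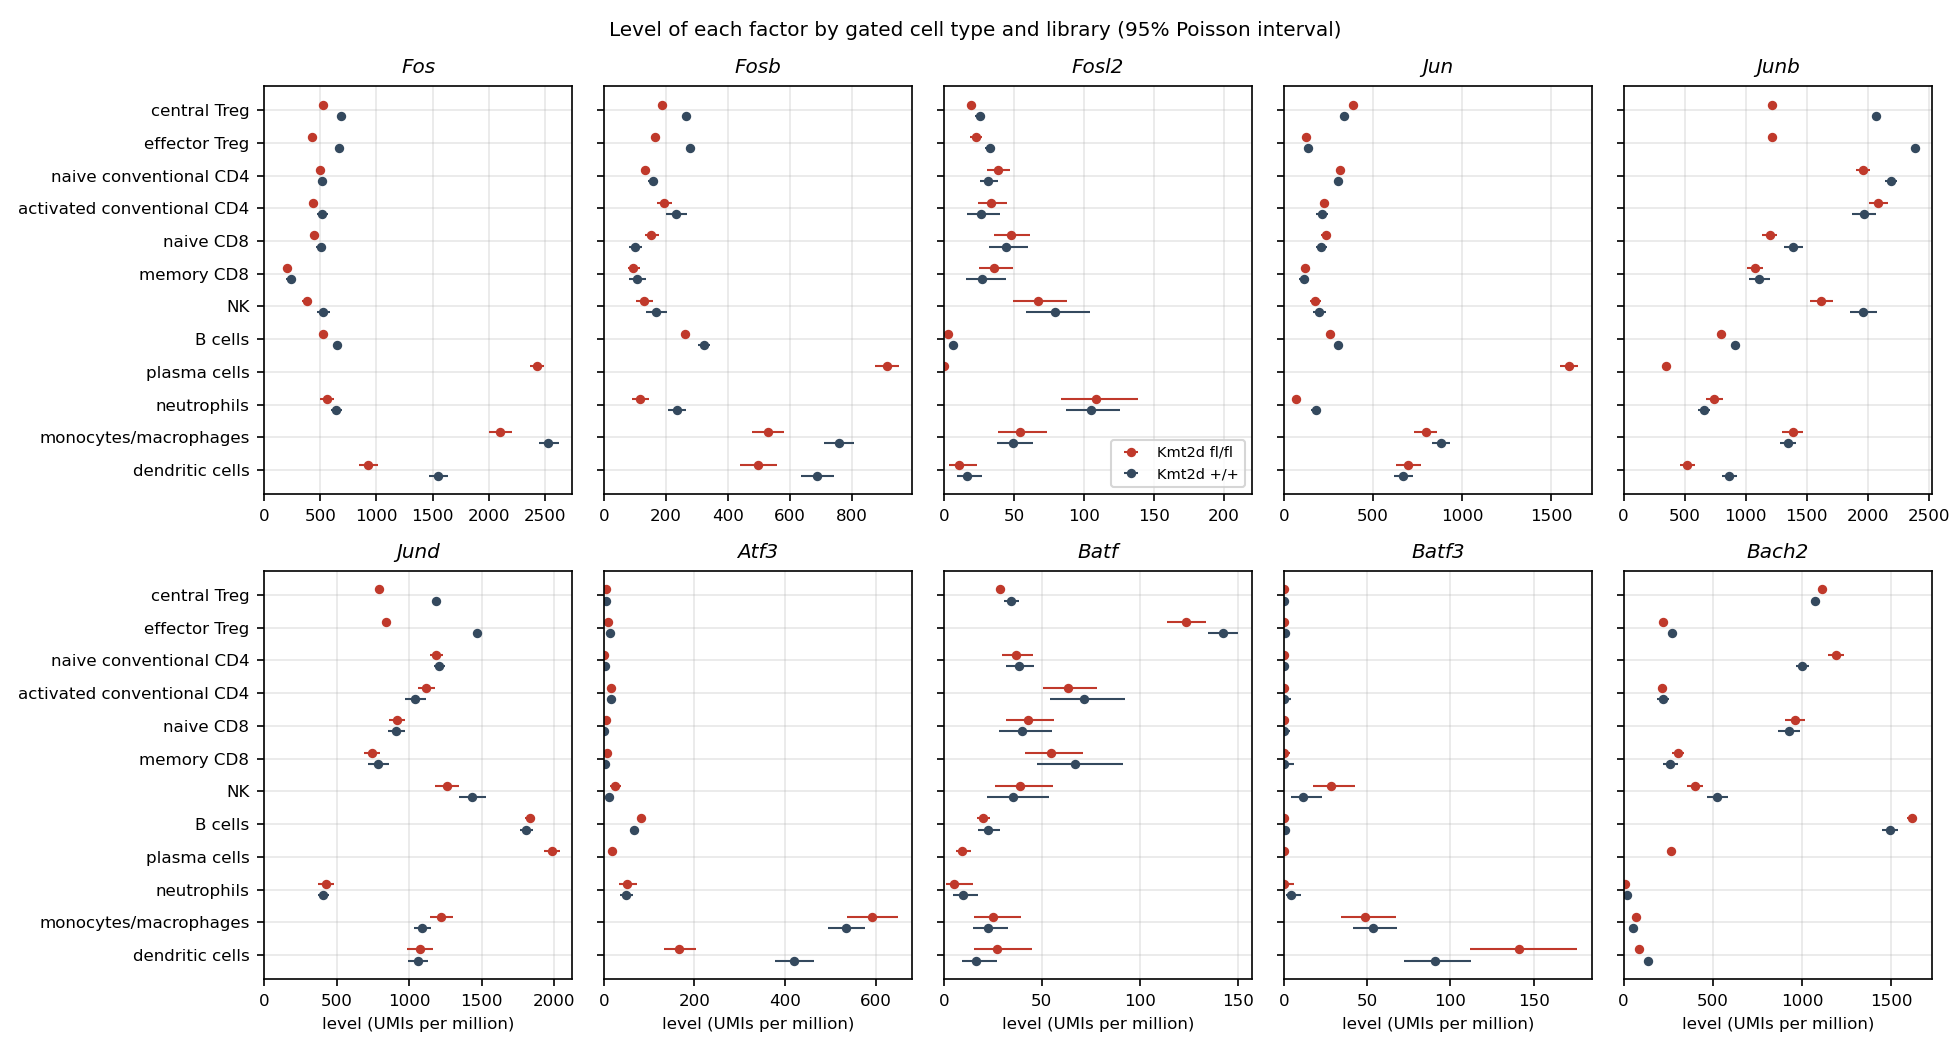
Level of each factor (x axis, CPM, one scale per gene) in gated cell types (rows), fl/fl in red above +/+ in dark grey, with 95% Poisson intervals. Gates with at least 50 cells in the library are drawn. Batf is furthest right in effector Treg cells, Bach2 in B cells and Batf3 in dendritic cells, while Junb and Jund of the Treg rows stand apart between the libraries.

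Between the libraries, 4 of the 8 factors measured in Treg cells were at least 1.5-fold lower in fl/fl cells (Junb, Jund, Batf and Fosb) and 0 were as far higher, while of all 8047 measured genes 9.53% were lower and 2.5% higher. All measured genes together had a median log2 ratio of -0.13, against which the ratios are to be read, and the 8 factors had a median of -0.53. Junb was at 1227 CPM in the fl/fl library, against 2261 CPM in the +/+ library, a log2 ratio of -0.88 (-0.90 to -0.86), and 4.65% of measured genes had a lower ratio. Jund was at 794 CPM in the fl/fl library, against 1309 CPM in the +/+ library, a log2 ratio of -0.72 (-0.74 to -0.70). Batf was at 53.5 CPM in the fl/fl library, against 84.3 CPM in the +/+ library, a log2 ratio of -0.66 (-0.75 to -0.56). These 3 encode the JUN and BATF sides of the same dimers. Among the FOS genes, Fosb was at 183 CPM in the fl/fl library, against 285 CPM in the +/+ library, a log2 ratio of -0.64 (-0.69 to -0.59). Fos was at 508 CPM in the fl/fl library, against 682 CPM in the +/+ library, a log2 ratio of -0.43 (-0.46 to -0.39), and Fosl2 at 21.2 CPM in the fl/fl library, against 28.5 CPM in the +/+ library, a log2 ratio of -0.42 (-0.58 to -0.26), both short of 1.5-fold. Jun and Bach2 stood on the other side of 0, also short of 1.5-fold. Jun was at 316 CPM in the fl/fl library, against 244 CPM in the +/+ library, a log2 ratio of 0.37 (0.33 to 0.42). Bach2 was at 881 CPM in the fl/fl library, against 654 CPM in the +/+ library, a log2 ratio of 0.43 (0.40 to 0.46). Atf3 (6.23 CPM in fl/fl and 9.94 CPM in +/+ cells) and Batf3 were under the 10 CPM floor. With the libraries scaled to a median ratio of 0 over genes in place of total UMIs, 2 factors stayed past 1.5-fold (Junb and Jund), and of all genes 548 were lower and 324 higher, against 767 lower and 201 higher with total UMIs.

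Within central Treg cells, 1 of 8 measured factors, Junb, was lower, where 8.12% of 7780 genes were lower and 3.1% higher. Junb was at 1219 CPM in the fl/fl library, against 2066 CPM in the +/+ library, a log2 ratio of -0.76 (-0.79 to -0.73). Jund, at 791 CPM in fl/fl and 1183 CPM in +/+ cells, fell just short of 1.5-fold with a log2 ratio of -0.58 (-0.62 to -0.55). Fosb (log2 ratio -0.51, interval -0.59 to -0.43) and Fos (log2 ratio -0.37, interval -0.41 to -0.32) were nearer to 0. Bach2 was at nearly the same level in both libraries, 1112 CPM in fl/fl and 1072 CPM in +/+ central cells, and Batf was at 28.8 and 34.5 CPM.

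Within effector Treg cells, 4 of 9 measured factors were lower (Junb, Jund, Fosb and Fos), where 9.57% of 8367 genes were lower and 5.21% higher. Junb was at 1216 CPM in the fl/fl library, against 2389.7 CPM in the +/+ library, a log2 ratio of -0.97 (-1.02 to -0.93). Jund was at 839 CPM in the fl/fl library, against 1469 CPM in the +/+ library, a log2 ratio of -0.81 (-0.86 to -0.76). Both encode JUN proteins, the partners that FOS and BATF proteins need to bind DNA. Fosb was at 164 CPM in the fl/fl library, against 278 CPM in the +/+ library, a log2 ratio of -0.76 (-0.88 to -0.65). Fos was at 430.1 CPM in the fl/fl library, against 666 CPM in the +/+ library, a log2 ratio of -0.63 (-0.70 to -0.56). Batf, a factor higher in effector than in central cells, was at 123 CPM in fl/fl and 142 CPM in +/+ effector cells (log2 ratio -0.21, interval -0.34 to -0.07), and Bach2 at 223 and 269 CPM (log2 ratio -0.27, interval -0.38 to -0.17). Set against central cells, the log2 ratio of Junb was lower in effector cells by a difference of -0.21 (-0.26 to -0.16), that of Jund by -0.23 (-0.29 to -0.16) and that of Fos by -0.26 (-0.35 to -0.18), intervals from counting error alone. In the intermediate cells between the states 3 of 8 measured factors were lower (Fosb, Junb and Jund), where 7.99% of 8113 genes were lower and 4.97% higher, with Junb at a log2 ratio of -0.89 (-0.93 to -0.84).

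**Figure D2:**
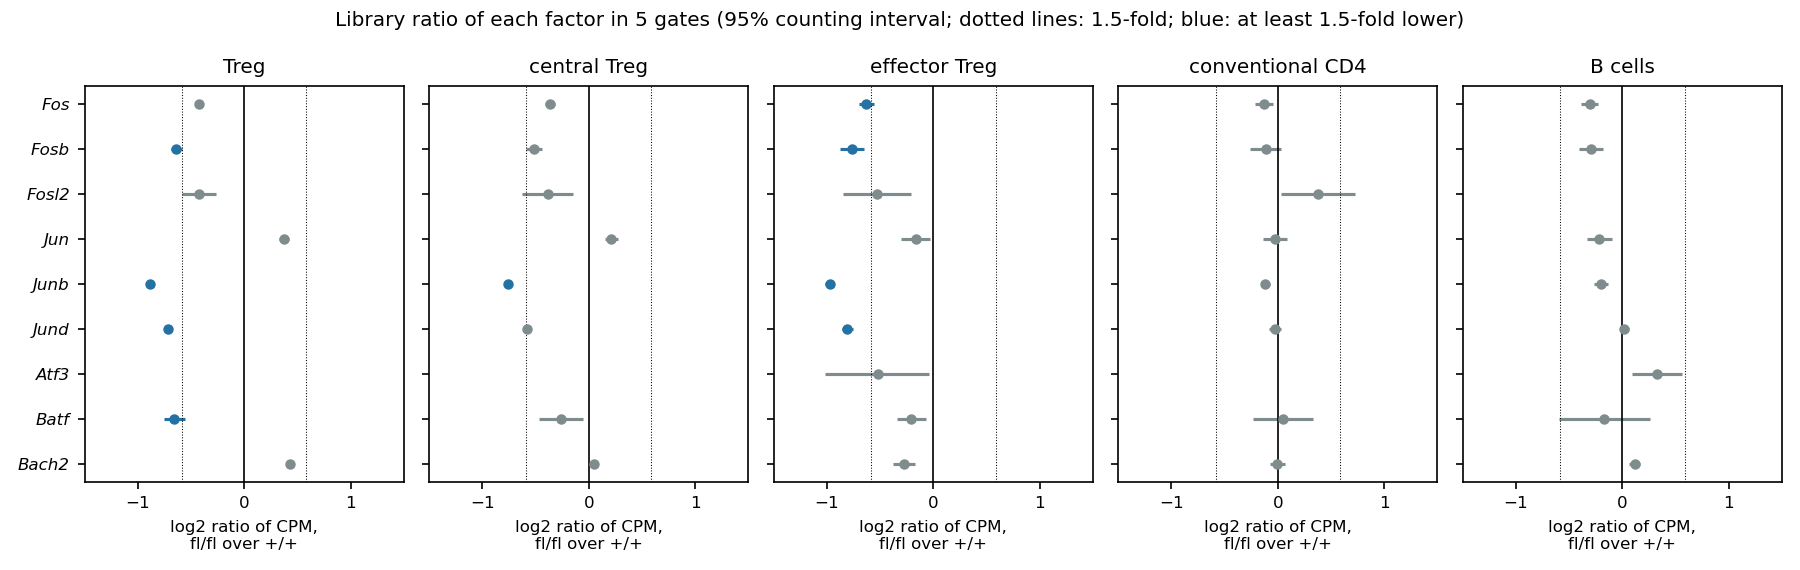
Log2 ratio of CPM, fl/fl over +/+ (x axis), of each factor (rows) in Treg cells, central Treg cells, effector Treg cells, conventional CD4 T cells and B cells, with 95% counting intervals. Factors under 10 CPM in both libraries of a gate, and Batf3, are not drawn. Blue points are at least 1.5-fold lower, and they lie in the 3 Treg panels, with Junb blue in each of them.

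Conventional CD4 T cells (a Cd4 UMI, and neither a Foxp3 nor an Ikzf2 UMI) had 0 of 8 measured factors past 1.5-fold in either direction, where 2.99% of 7857 genes were lower and 2.57% higher. Junb was at 2007 CPM in the fl/fl library, against 2181 CPM in the +/+ library, a log2 ratio of -0.12 (-0.16 to -0.08). Jund was at 1157 CPM in fl/fl and 1176 CPM in +/+ cells (log2 ratio -0.02, interval -0.08 to 0.03), and Bach2 at 800.2 and 803 CPM (log2 ratio 0.00, interval -0.07 to 0.06). The mix of states differed in this gate too: 443 fl/fl and 539 +/+ cells were naive, and 231 and 127 were activated. Within naive cells Bach2 was at 1191 CPM in fl/fl and 1002 CPM in +/+ cells (log2 ratio 0.25), and within activated cells at 218 CPM in both. The part of this mix in the ratios of the gate was not tested. The log2 ratio of Junb in Treg cells less that in conventional CD4 T cells was -0.76 (-0.81 to -0.72), and the same difference was -0.70 (-0.76 to -0.64) for Jund, -0.52 (-0.68 to -0.37) for Fosb and -0.71 for Batf. With states matched, central Treg less naive conventional cells gave -0.60 (-0.66 to -0.54) for Junb and -0.56 (-0.64 to -0.48) for Jund. Effector Treg less activated conventional cells gave -1.06 (-1.16 to -0.96) for Junb and -0.91 (-1.04 to -0.78) for Jund. For Batf these matched differences were -0.20 (-0.64 to 0.24) and -0.03 (-0.53 to 0.47), both with intervals that include 0. The conventional gate held 735 fl/fl and 766 +/+ cells. Foxp3-driven Cre is not expected to act in conventional cells, but these cells came from the same CD4+FoxP3+ sort. Since most Treg cells also lack a Foxp3 UMI, the conventional gate can hold Treg cells, in which Cre can have acted. In its naive part 0 of 8 measured factors passed 1.5-fold, where 4.7% of genes were lower and 1.38% higher, and in its activated part 0 of 9, where 4.62% were lower and 3.98% higher.

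Read within a library, the same pattern appeared as a gap between central Treg and naive conventional CD4 T cells. In the fl/fl library, Junb was at 1219 CPM in central Treg and 1957 CPM in naive conventional cells (log2 ratio -0.68, interval -0.73 to -0.64), and Jund at 791 and 1186 CPM (log2 ratio -0.59, interval -0.64 to -0.53). In the +/+ library the levels were 2066 and 2191 CPM for Junb (log2 ratio -0.08, interval -0.12 to -0.04) and 1183 and 1205 CPM for Jund (log2 ratio -0.03, interval -0.08 to 0.03). By the 1.5-fold rule, Fosl2, Junb and Jund were lower in fl/fl central Treg cells than in naive conventional cells of the same library (3 factors, where 6.68% of 7720 genes were lower and 9.02% higher), and Fosb was higher in +/+ central Treg cells than in their naive conventional cells (1 factor, where 6.49% of 7828 genes were higher and 3.45% lower).

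The smaller gates were compared in the same way. In B cells 0 of 8 measured factors passed 1.5-fold, where 2.91% of 7978 genes were lower and 1.87% higher, with Junb at 795 CPM in fl/fl and 914 CPM in +/+ cells (log2 ratio -0.20, interval -0.27 to -0.13) and Jund at 1832 and 1806 CPM (log2 ratio 0.02, interval -0.03 to 0.07). In dendritic cells (60 fl/fl and 83 +/+ cells) Fos, Junb, Atf3 and Bach2 were lower and Batf3 was higher, where 6.27% of 8793 genes were lower and 5.53% higher. There, Junb was at 518 CPM in the fl/fl library, against 862 CPM in the +/+ library, a log2 ratio of -0.74 (-0.94 to -0.54), a ratio of the size seen in central Treg cells, and Atf3 at 165 CPM in the fl/fl library, against 419 CPM in the +/+ library, a log2 ratio of -1.35 (-1.69 to -1.01). With cells thinned to 2500 UMIs, Batf3 in dendritic cells averaged 0.288 UMIs per cell in fl/fl and 0.301 in +/+. Its higher call was thus not seen in thinned cells, and before thinning 43.3% of fl/fl and 45.8% of +/+ cells held a UMI. In neutrophils (64 fl/fl and 119 +/+ cells) Fosb (log2 ratio -1.03, interval -1.43 to -0.64) and Jun (log2 ratio -1.37, interval -1.89 to -0.88) were lower, where 5.16% of 7344 genes were lower and 5.23% higher. Thinned, Jun in neutrophils averaged 0.140 UMIs per cell in fl/fl and 0.429 in +/+, and Fosb 0.368 UMIs per cell in fl/fl and 0.410 in +/+, a gap short of 1.5-fold. Fosb was higher in naive CD8 T cells (log2 ratio 0.61, interval 0.25 to 0.99), where 3.06% of 7977 genes were higher and 4.06% lower. Thinned, it averaged 0.321 UMIs per cell in fl/fl and 0.333 in +/+, so the direction was not seen in thinned cells. Unthinned, 35.9% of fl/fl and 29.5% of +/+ cells held a UMI. Median depths were alike there (6902.5 and 6881 UMIs), and thinning leaves fewer UMIs to compare. Batf3 was higher in NK cells (log2 ratio 1.32, interval 0.03 to 2.79), where 3.04% of 8267 genes were higher and 4.43% lower, but 2.47% of fl/fl and 2.82% of +/+ NK cells held a UMI, so a few cells carried the value and its interval, which takes UMIs as independent, is too narrow. In memory CD8 T cells 0 of 8 measured factors passed 1.5-fold, where 2.35% of genes were higher and 3.49% lower, and in monocytes and macrophages 0 of 10, where 5.78% were higher and 9.04% lower. Over all T cells together, Junb alone of 8 was lower (log2 ratio -0.69, interval -0.70 to -0.67), where 5.58% of 8005 genes were lower and 1.84% higher.

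The Treg gate of the 2 libraries differed in its mix of states, so the factors were set out by state as well. With effector cells set against central ones, Batf was 4.28-fold higher in the fl/fl library (123 CPM in effector and 28.8 CPM in central cells) and 4.12-fold higher in the +/+ library (142 and 34.5 CPM). Bach2 was 4.98-fold lower in fl/fl effector cells (223 CPM in effector and 1112 CPM in central cells) and 3.98-fold lower in +/+ effector cells (269 and 1072 CPM). Jun was 3.14-fold and 2.42-fold lower in effector cells of the fl/fl and +/+ libraries. By count, 1 of 8 measured factors (Batf) was higher and 2 lower in the fl/fl library, where 22.1% of 8145 genes were higher and 5.56% lower. In the +/+ library 2 of 9 (Batf and Atf3) were higher and 2 lower, where 17.8% of 8292 genes were higher and 5.05% lower. Junb and Jund differed by less than 1.5-fold between the states, with effector over central log2 ratios of 0.00 and 0.09 in the fl/fl library and 0.21 and 0.31 in the +/+ library. The median over all measured genes was 0.22 in the fl/fl and 0.18 in the +/+ library.

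When central, effector and other Treg cells were weighted alike in both libraries, the factors that were at least 1.5-fold lower were Junb, at -0.88 (-0.90 to -0.85), Jund, at -0.70 (-0.72 to -0.67), and Fosb, at -0.69 (-0.75 to -0.63). Without this weighting 9.53% of 8047 genes were lower in Treg cells. The share with it is not given here, so the list names factors and says nothing of the set. Batf moved to -0.06 (-0.16 to 0.04), Jun to -0.02 (-0.07 to 0.04) and Bach2 to -0.01 (-0.04 to 0.03), each with an interval that includes 0, and Fos was at -0.49 (-0.53 to -0.45). In 5 equal bins of the central marker share, the first holding the most effector cells (444 fl/fl and 1171 +/+) and the fifth the most central (2037 fl/fl and 1060 +/+), Junb was at 1210.3 CPM in fl/fl and 2377 CPM in +/+ cells of the first bin and at 1215 and 2116 CPM in the fifth. Its log2 ratio in bins 1 to 5 was -0.97, -0.94, -0.93, -0.72 and -0.80, and that of Jund was -0.83, -0.64, -0.72, -0.64 and -0.60. Both were below 0 in each bin. The log2 ratio of Batf in bins 1 to 5 was -0.29, 0.23, 0.43, -0.40 and -0.26. That of Jun was -0.04, -0.15, -0.48, 0.0045 and 0.24. The weighted values of Batf and Jun near 0 thus do not stand for equal levels along the axis, and the part of the state mix was not tested. The fl/fl levels of Junb were flat along the bins, between 1210.3 and 1275 CPM, while the +/+ levels ran between 2073 and 2449 CPM and were highest in the second bin. Bach2 climbed along the bins from effector to central in both, reaching 1143 CPM in fl/fl and 1116 CPM in +/+ cells of the fifth bin, against 165 and 228 CPM in the first, where its log2 ratio was -0.47.

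**Figure D3:**
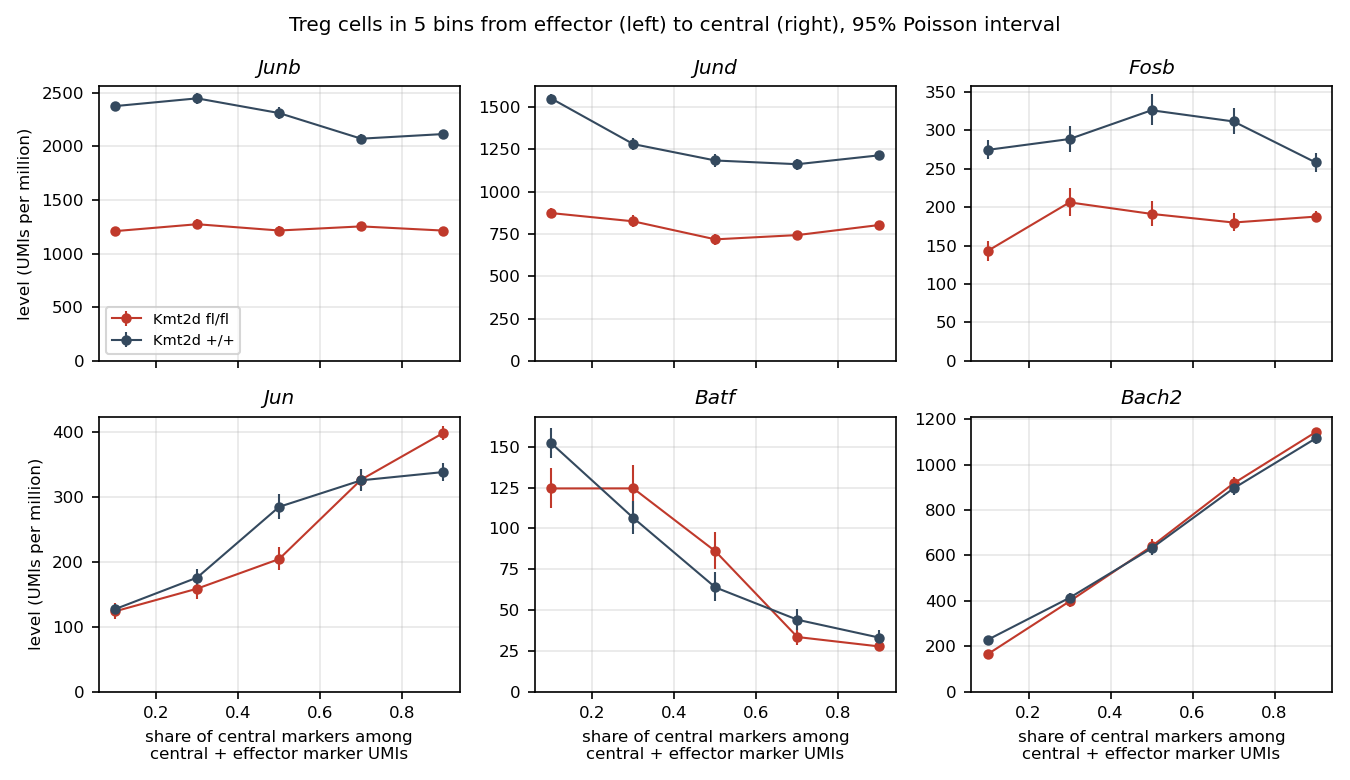
Level (y axis, CPM, from 0) of 6 factors in Treg cells in 5 bins of the share of central markers among central and effector marker UMIs (x axis), fl/fl in red and +/+ in dark grey, with 95% Poisson intervals. Junb, Jund and Fosb are lower in fl/fl cells in each bin, whereas the ratios of Jun, Batf and Bach2 lie on both sides of 0 along the axis.

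Conventional CD4 T cells were compared by state in the same way. With activated cells set against naive ones, Batf was at 63.2 CPM in activated and 36.9 CPM in naive cells of the fl/fl library, and at 71.4 and 38.4 CPM in the +/+ library. Bach2 was at 218 and 1191 CPM in the fl/fl library and at 218 and 1002 CPM in the +/+ library. By the size rule, 2 of 9 measured factors (Atf3 and Batf) were higher and 1 (Bach2) lower in each library, where 20.2% of genes were higher and 6.05% lower in fl/fl and 14.8% higher and 4.67% lower in +/+ cells. Jun was short of 1.5-fold here, at log2 ratios of -0.47 in fl/fl and -0.53 in +/+ cells.

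Cycling Treg cells, which overlap the other Treg gates, held 204 fl/fl and 115 +/+ cells. Jund was lower there (log2 ratio -0.67, interval -0.76 to -0.57), where 6.66% of 8103 genes were lower and 3.62% higher, and Junb, at 612 CPM in fl/fl and 832 CPM in +/+ cells (log2 ratio -0.44, interval -0.53 to -0.35), fell short of 1.5-fold. Bach2 (log2 ratio 0.70, interval 0.58 to 0.83) and Fosl2 (log2 ratio 0.84, interval 0.12 to 1.60) were higher. The cycling gates differed in state: the median cell held 13 effector marker UMIs and 22 central marker UMIs in fl/fl, against 43 and 13 in +/+ cells, and the part of this in the Bach2 ratio was not tested.

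Per cell, the median fl/fl Treg cell held fewer Junb UMIs in both states. With each cell thinned to 2500 UMIs, which left out 11 fl/fl and 32 +/+ Treg cells, the median central Treg cell held 3 Junb UMIs in the fl/fl library and 5 in the +/+ library, the median effector Treg cell 3 and 6, and the median conventional CD4 T cell 5 in both. Cells with 0 Junb UMIs made up 13.9% of fl/fl and 4.16% of +/+ thinned Treg cells. A Junb UMI was found in 86.1% (84.9 to 87.2) of fl/fl and 95.8% (95.2 to 96.5) of +/+ Treg cells, and before thinning in 96.0% of fl/fl cells (median depth 6891 UMIs) and 98.8% of +/+ cells (5605.5 UMIs). In neutrophils the thinned shares were 61.4% of fl/fl and 60.0% of +/+ cells, and none of the listed gates was without Junb. The variance of Junb UMIs over their mean was 2.35 in fl/fl and 2.75 in +/+ central Treg cells, above the value of 1 that counting alone would give. The 10% of central cells with the most Junb carried 28.0% of its UMIs in fl/fl and 24.8% in +/+ cells.

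Bach2 was found in 73.9% (72.4 to 75.3) of fl/fl and 61.5% (59.9 to 63.0) of +/+ thinned Treg cells (88.0% and 76.6% unthinned). Within states the shares were 86.7% of fl/fl and 84.3% of +/+ central cells, and 28.2% and 38.1% of effector cells. In neutrophils, which should hold little Bach2, the shares were 0 of 57 fl/fl cells (exact upper limit 6.27%) and 1.90% of 105 +/+ cells, at median depths of 7786 and 8613 UMIs before thinning. Batf was found in 18.7% of fl/fl and 24.0% of +/+ thinned effector Treg cells (39.8% and 42.6% unthinned), in 6.82% and 7.11% of central ones, and in 0 of 57 and 4.76% of neutrophils. Its UMIs in effector cells averaged 0.268 in fl/fl and 0.331 in +/+ cells, so most single cells showed no Batf UMI at this depth.

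**Figure D4:**
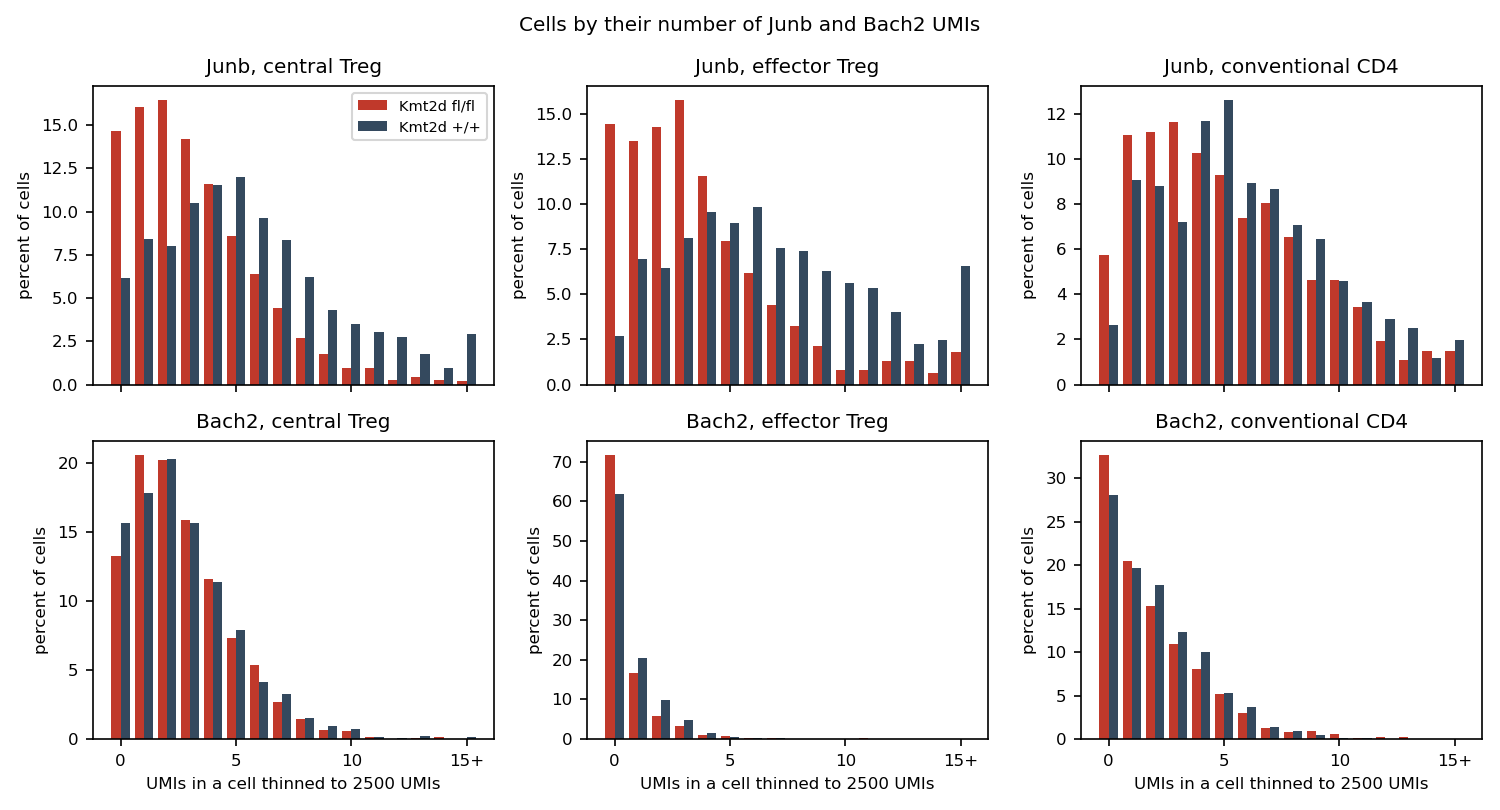
Percent of cells (y axis, from 0) by their number of Junb (top) and Bach2 (bottom) UMIs after thinning to 2500 UMIs per cell (x axis, 15 or more pooled), in central Treg, effector Treg and conventional CD4 T cells, fl/fl in red left of +/+ in dark grey. The fl/fl Junb bars sit further left in both Treg panels, with medians of 3 UMIs against 5 and 6 in +/+ cells, and the median in conventional CD4 T cells is 5 UMIs in both libraries.

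Within a state, Fos, Fosb and Jun were found in the same cells more often than their separate shares would give if independent. Fos was found in 78.4% of fl/fl central Treg cells with a Fosb UMI and 54.7% of those without, and in 84.6% and 64.2% of +/+ central Treg cells. Fosb was found in 44.4% of fl/fl effector Treg cells with a Jun UMI and 24.3% of those without, and in 59.5% and 37.0% of +/+ effector cells. Batf and Bach2 showed no such excess in effector cells. Batf was found in 14.4% of fl/fl effector cells with a Bach2 UMI and 20.4% of those without, and in 23.2% and 24.5% of +/+ ones. Cells were thinned to one depth, and cells of a library share their preparation, so these shares describe 2 libraries and carry no test.

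Other genes that rise early after stimulation or tissue dissociation were set beside the factors. Of 32 such genes 29 were measured in Treg cells, of which 7 were lower and 1 higher in fl/fl cells (9.53% and 2.5% over all genes), with a median log2 ratio of -0.30. The lowest were Gadd45b, a stress response gene (62.6 CPM in fl/fl and 151 CPM in +/+ Treg cells, a log2 ratio of -1.27), Egr3, a target of antigen receptor signalling (7.64 CPM in fl/fl and 18.2 CPM in +/+ Treg cells, a log2 ratio of -1.25), and Dusp1, a phosphatase that switches off MAP kinases (318 CPM in fl/fl and 746 CPM in +/+ Treg cells, a log2 ratio of -1.23). The higher one was Myc (96.7 CPM in fl/fl and 63.8 CPM in +/+ Treg cells, a log2 ratio of 0.60). Their summed level was 8799 CPM in fl/fl and 9919 CPM in +/+ Treg cells, and 8128 and 8752 CPM in conventional CD4 T cells, where 2 of 28 were lower and 1 higher (2.99% and 2.57% over all genes). Within central Treg cells 7 of 28 were lower (8.12% over all genes), and within effector Treg cells 8 of 29 (9.57% over all genes). With effector set against central cells, Egr2, Gadd45b and Dusp1 were higher in both libraries, Egr2 by log2 ratios of 1.98 in fl/fl and 1.71 in +/+ cells, and Nr4a1, Myc and Ppp1r15a were lower, Nr4a1 by -0.91 in fl/fl and -0.86 in +/+ cells. Median depth per Treg cell was 6891 UMIs in fl/fl and 5605.5 in +/+, and the median mitochondrial share 2.48% and 2.99%. Summed markers of other lineages in Treg cells were 8.03 CPM in fl/fl and 16.6 CPM in +/+ for 6 B cell genes, and 10.4 and 26.1 CPM for 8 neutrophil genes, and the median Treg cell of either library held 0 UMIs of the NK, B cell, plasma cell, neutrophil, monocyte or macrophage, and dendritic cell lists. The T cell gate itself allowed at most 2 UMIs of each of the B cell, neutrophil, and monocyte or macrophage lists. It also left out cells past the plasma and dendritic cell cuts. These low values are thus limited by the gate and are no free measure of carried-over RNA. The part of cell handling, depth and carried-over RNA in the ratios of the factors was not tested.

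Among 27 other basic leucine zipper genes that can pair with the factors or share their sites, 19 were measured in Treg cells, of which 3 were lower, where 9.53% of all genes were, and 0 higher (median -0.28). Within central cells 1 of 19 was lower and 1 higher (8.12% and 3.1% over all genes). Within effector cells 2 of 20 were lower and 0 higher (9.57% and 5.21% over all genes). The lower ones were Nfil3 (21.1 CPM in fl/fl and 42.6 CPM in +/+ Treg cells, a log2 ratio of -1.02), a factor of several lymphoid lineages, Atf6 (25.1 CPM in fl/fl and 44.4 CPM in +/+ Treg cells, a log2 ratio of -0.82), a sensor of unfolded protein, and Cebpb (82.1 CPM in fl/fl and 142 CPM in +/+ Treg cells, a log2 ratio of -0.79). In conventional CD4 T cells 0 of 19 passed 1.5-fold either way. With effector set against central cells, Cebpa and Nfil3 were higher in both libraries, Nfil3 by log2 ratios of 2.16 in fl/fl and 2.79 in +/+ cells. Cebpa, a factor of myeloid cells, was at 13.4 CPM in fl/fl and 20.0015 CPM in +/+ effector cells, with 3 fl/fl and 1 +/+ UMIs in central cells, which leaves its log2 ratios of 6.39 and 7.50 with intervals of 4.78 to 8.71 and 5.0003 to 12.81. Maff, a small MAF gene, was lower in effector cells of both, at -1.35 in fl/fl and -0.68 in +/+ cells.

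Of the kinases that lead to FOS and JUN, most differed by less than 1.5-fold. Among 30 genes from RAS to the MAP kinases and serum response factors, 27 were measured in Treg cells, of which 3 were lower, a share near the 9.53% of all genes, and 0 higher, with a median log2 ratio of -0.21. Within central cells 1 of 27 was lower and 0 higher (8.12% and 3.1% over all genes). Within effector cells 3 of 27 were lower and 1 higher (9.57% and 5.21% over all genes). The lower ones were Mapk11, a p38 kinase (5.26 CPM in fl/fl and 12.2 CPM in +/+ Treg cells, a log2 ratio of -1.22), Map3k5, the stress kinase ASK1 (97.7 CPM in fl/fl and 165 CPM in +/+ Treg cells, a log2 ratio of -0.76), and Map2k3, which activates p38 (23.5 CPM in fl/fl and 36.8 CPM in +/+ Treg cells, a log2 ratio of -0.65). In conventional CD4 T cells 0 of 26 passed 1.5-fold either way. Map2k3 and Map3k5 were higher in effector than central cells of both libraries, Map2k3 by log2 ratios of 2.07 in fl/fl and 1.64 in +/+ cells.

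Genes of the effector Treg programme tied to BATF and IRF4 were lower over the whole Treg gate, 10 of 21 measured with 0 higher, where 9.53% of all genes were lower (median -0.44). They were led by Il1rl1, the interleukin-33 receptor (0.761 CPM in fl/fl and 21.7 CPM in +/+ Treg cells, a log2 ratio of -4.84), Ccr8, a chemokine receptor (4.22 CPM in fl/fl and 21.3 CPM in +/+ Treg cells, a log2 ratio of -2.33), and Bhlhe40 (65.8 CPM in fl/fl and 209.9 CPM in +/+ Treg cells, a log2 ratio of -1.67). In conventional CD4 T cells 7 of 17 were higher and 1 lower in the fl/fl library, where 2.57% of all genes were higher and 2.99% lower. That gate held 231 activated cells among 735 in fl/fl and 127 among 766 in +/+, and the part of its mix in this count was not tested. Quiescence genes kept up alongside BACH2 stood the other way over the whole Treg gate, where 2.5% of all genes were higher and 9.53% lower. Of 16 such genes 7 were higher and 2 lower (median 0.47). S1pr1, which guides exit from lymphoid tissue (233 CPM in fl/fl and 134 CPM in +/+ Treg cells, a log2 ratio of 0.79), Lef1 (627 CPM in fl/fl and 366 CPM in +/+ Treg cells, a log2 ratio of 0.78) and Klf2 (974 CPM in fl/fl and 594 CPM in +/+ Treg cells, a log2 ratio of 0.71) were the highest, and Id3 (51.8 CPM in fl/fl and 84.3 CPM in +/+ Treg cells, a log2 ratio of -0.70) and Il7r (126 CPM in fl/fl and 190.4 CPM in +/+ Treg cells, a log2 ratio of -0.60) the lower ones. In conventional CD4 T cells 0 of 16 passed 1.5-fold either way. The Treg gate was 67.0% central in fl/fl and 35.8% in +/+ cells, and the part of this mix in the counts of both lists was not tested. Several members of both lists served as state markers for the gates (among them S1pr1, Lef1, Tcf7, Ccr7 and Satb1, and Icos, Maf, Tigit, Klrg1 and Tnfrsf9), so neither the counts within those gates nor the difference between them are given for these lists. Il10, which was no marker, was at 66.8 CPM in fl/fl and 80.2 CPM in +/+ effector cells, and at 1.43 and 4.77 CPM in central cells.

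Likeness of pattern was taken as Pearson's r of log2(CPM + 10) over 23 profiles, each a gate with at least 50 cells in 1 library, among 9381 genes at 20 CPM or more in a profile. Profiles of the 2 libraries share gates, so r is a description. Fos was most like Gm26885 (0.94), Fosb (0.92), Ftl1 (0.86), Gusb (0.86) and Tmem176b (0.86), and Jun most like Fosb (0.86), Fndc3a (0.85), Fos (0.84), Herpud1 (0.82) and Erp29 (0.81). Batf was most like Hacd3 (0.93), Syt11 (0.91), Rora (0.90), Exosc8 (0.90) and Pkp3 (0.88). Bach2 was most like 4930523C07Rik (0.92), Capn7 (0.92), Serpini1 (0.92), Foxp1 (0.92) and Foxo1 (0.92). Among the factors themselves r was 0.79 for Atf3 with Batf3 and 0.64 for Junb with Batf, and -0.54 for Atf3 with Bach2.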

How the data were processed

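Droplet 3′ single-cell RNA-seq (10x Genomics v3.1) of 2 pooled libraries was used. The deposited matrices hold raw counts of UMIs per gene and barcode, made by the authors with fastp, Cell Ranger 7.1.0 and Seurat 4.1.1 on mm10/GRCm38, per the submitters' processing notes. The annotation release, intron setting and cell filters are not given in the sources used here.

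Barcodes with at least 500 genes and at most 10% mitochondrial UMIs were kept (8634 fl/fl and 7790 +/+). Doublets were scored by Scrublet's method, rewritten here. Its automatic threshold called 0.0811% and 0.0513%, so Otsu's threshold was used (218 fl/fl and 117 +/+ removed). Gates were cut on summed marker UMIs at levels set after the data were seen: T cells had at least 5 T cell UMIs with a CD3 UMI and at most 2 B cell and 2 myeloid UMIs, and states needed at least 3 state UMIs, with a central share of at least 0.67 (central) or at most 0.33 (effector). UMIs were summed per gate and library, and CPM taken per 1000000 UMIs. Intervals are exact Poisson, exact conditional binomial (ratios), Clopper-Pearson (shares) or a normal approximation of counting error (differences of ratios, weighted ratios). With 1 library per group there was no test. The 10 factors and the 5 gene lists were chosen with earlier results of these data known. Named are all 10 factors and, from each list, up to 3 genes at either end among those past 1.5-fold in Treg cells, or alike in effector against central cells of both libraries, apart from items not reported here. Gene positions are from GENCODE and promoters from RefSeq (GRCm38.p6). Alternatives covered scaling, floor, fold, filters, doublets, gates, thinning and state weights. Python 3.11.15, numpy 2.4.6, scipy 1.17.1, pandas 2.3.3, scikit-learn 1.9.0, scikit-image 0.26.0 and matplotlib 3.10.9 were used, and interval and ratio code was tested on simulated data.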

Additional observations from a re-analysis of the deposited data

Results flagged for a closer look

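The following ratios of fl/fl over +/+ lay on opposite sides of 0 in different gates, and whether they differ was not tested across replicates, of which there are none. Fosl2 had a log2 ratio of -0.39 in central Treg and -0.52 in effector Treg cells, but 0.37 in conventional CD4 T cells. Jun was at 0.21 in central Treg, -0.16 in effector Treg and -0.22 in B cells. Atf3 was at -0.52 in effector Treg cells, where it was rare (9.94 CPM in fl/fl and 14.3 CPM in +/+), and at 0.32 in B cells (82.9 and 66.2 CPM). Bach2 was at -0.27 in effector Treg cells, 0.05 in central Treg cells and 0.11 in B cells. All are under 1.5-fold in size.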

How the results depend on the processing

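No paired analysis was possible because each genotype has 1 library, and for the same reason no replicate could be left out. Of 554 ratios of the factors recomputed under the alternatives, 476 stayed within the counting interval, 78 moved outside it, and 0 of those past 1.5-fold changed sign. Junb in Treg cells ranged from -0.90 to -0.75, Batf from -0.80 to -0.05, Jun from -0.04 to 0.51 and Bach2 from -0.03 to 0.56, where for Batf, Jun and Bach2 the values nearest 0 came with the 3 states, or 10 bins of the central marker share, weighted alike. Scaling to a median ratio of 0 over genes left 2 factors lower in Treg cells, and a 2-fold rule left 0 lower in all T cells, Treg, central and effector cells. A 5% mitochondrial limit, or cells with a Foxp3 UMI only, gave 2 lower in central cells (Junb and Jund). Thinning gave 1 higher in conventional CD4 T cells (Fosl2). In effector against central cells, a 20 CPM floor gave 1 higher in the +/+ library, and no floor, all barcodes, a 5% mitochondrial limit or doublets kept each gave 2 higher in the fl/fl library (Atf3 and Batf). Junb in Treg cells was 1359 CPM thinned and 1212 CPM with stricter gates in fl/fl, and 2535 CPM thinned in +/+. Bach2 was 864 CPM thinned in fl/fl and 637 CPM with stricter gates in +/+. Shares with Junb were 96.0% in fl/fl and 98.8% in +/+ cells unthinned, and 82.3% and 94.0% at 2000 UMIs, and with Bach2 88.0% and 76.6% unthinned, and 70.3% and 56.2% at 2000 UMIs. The causes of the other moves were not tested. The counts under changed settings stand without the share of all genes under each, so they name factors and say nothing of the set. Atf3 and Batf3 are too rare in T cells for this depth.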

Other observations

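The genes in this paragraph were picked after their values were seen, so they are a description. IRF4 and IRF8, which bind DNA together with BATF and JUN proteins, were higher in some fl/fl gates. Irf4 was at 34.2 CPM in fl/fl and 21.4 CPM in +/+ central Treg cells (log2 ratio 0.68). Irf8 was at 16.02 and 9.76 CPM in central Treg cells (0.72), at 36.9 and 21.6 CPM in effector Treg cells (0.77), and at 17.3 and 9.26 CPM in conventional CD4 T cells (0.90). Prdm1, which encodes the effector regulator BLIMP1, was at 64.3 CPM in fl/fl and 30.5 CPM in +/+ effector Treg cells (1.08) and at 15.1 and 4.74 CPM in conventional CD4 T cells (1.67). The conventional gate held 231 activated cells among 735 in fl/fl and 127 among 766 in +/+. The part of this mix in the Irf8 and Prdm1 ratios of that gate was not tested. Bcl6, the antagonist of Prdm1, was at 62.1 CPM in fl/fl and 113 CPM in +/+ effector Treg cells (-0.86). Maff, which encodes a small MAF protein, a partner type of BACH2, was at 8.52 and 19.0 CPM in the same cells (-1.16).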
